A study of Rattus norvegicus with 16 samples.

Results

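The genes described are those of mitochondrial and peroxisomal fatty acid oxidation, 35 enzymes and carriers listed by name. A gene was measured by the probe sets that carry its symbol alone in the platform annotation, and the probe set of highest mean signal over all 16 arrays stood for it. This gave values for 34 of the 35 genes, of 14217 genes measured in the same way and of 31042 probe sets tested. Acaa1a, the peroxisomal thiolase, had only a probe set that it shares with Acaa1b and has no value here. Of the 34 genes, 25 had 1 probe set and 9 had several.

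Long-chain fatty acids are activated to acyl-CoA, passed to carnitine by a palmitoyltransferase of the outer mitochondrial membrane, carried across the inner membrane by a translocase and returned to CoA by a second palmitoyltransferase. In the matrix a dehydrogenase, a hydratase, a second dehydrogenase and a thiolase then remove acetyl-CoA in repeated rounds, and the electrons of the first step pass through the electron transfer flavoprotein to ubiquinone. Peroxisomes take up very long and branched chains through ABC transporters, shorten them with their own set of enzymes, and pass the products on as carnitine esters. Soleus, a postural muscle made up mostly of slow, oxidative fibres, draws much of its energy from this pathway, and endurance training is known to raise its capacity in muscle.

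Total RNA from soleus was hybridised to Affymetrix rat arrays, 1 array for each of 16 female rats of generation 16 of 2 lines bred from N:NIH stock, HCR for high and LCR for low treadmill running capacity. Each line gave 4 trained and 4 sedentary rats, and the resulting 4 groups are called by line and state, for example HCR trained. Trained rats ran uphill at 25 degrees on 5 days a week for 8 weeks, 1.5 hours a session, in 8-minute intervals at 85 to 90% of maximal oxygen uptake. All rats were killed at about 7 months of age, trained rats 48 hours after the last session, and sedentary rats were age-matched and did not run. Values are the deposited log2 signals, which have no detection calls, so the number of arrays limits the precision. The samples are separate rats, and p-values rest on the spread between rats within groups, shared over all 4 groups. The 4 comparisons of pairs of groups share groups with one another, so they are not independent.

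The 3 genes shown here were picked by their p-values in these data, and all 3 serve peroxisomes. Crot is the peroxisomal carnitine octanoyltransferase that makes medium-chain esters for export. Pecr is a peroxisomal enoyl-CoA reductase that saturates the double bond of trans-2-enoyl-CoA. Abcd3 is an ABC transporter of the peroxisomal membrane, and its HCR training difference did not pass (limma adjusted p = 0.104). Of 26 alternative analyses, Crot passed in 5 and Pecr in 6. The other peroxisomal genes, Ehhadh, Decr2, Acox3 and Hsd17b4, differed by 0.45, 0.12, 0.01 and -0.08 in HCR training. None of these passed. Crot, Pecr and Abcd3 had the smallest p-values of the 34 for training in HCR, so the 250 bases before their annotated starts are shown. They are RefSeq sequences of build GRCr8, at chr4:26052874-26053123 on the plus strand for Crot, chr9:81375807-81376056 on the minus strand for Pecr and chr2:212590380-212590629 on the minus strand for Abcd3, each written 5′ to 3′ along the gene. Capitals mark the GC box, GGGCGG or its reverse complement CCGCCC.
Crot: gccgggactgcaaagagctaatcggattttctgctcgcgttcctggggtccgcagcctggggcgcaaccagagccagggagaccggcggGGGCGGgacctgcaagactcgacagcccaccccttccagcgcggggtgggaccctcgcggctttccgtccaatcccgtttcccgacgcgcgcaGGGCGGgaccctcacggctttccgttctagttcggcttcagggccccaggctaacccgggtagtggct
Pecr: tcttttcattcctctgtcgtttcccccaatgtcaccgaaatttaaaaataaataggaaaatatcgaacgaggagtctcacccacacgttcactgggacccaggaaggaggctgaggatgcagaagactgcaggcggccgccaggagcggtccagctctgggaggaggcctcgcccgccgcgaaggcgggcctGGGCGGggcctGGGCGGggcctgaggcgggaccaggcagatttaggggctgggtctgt
Abcd3: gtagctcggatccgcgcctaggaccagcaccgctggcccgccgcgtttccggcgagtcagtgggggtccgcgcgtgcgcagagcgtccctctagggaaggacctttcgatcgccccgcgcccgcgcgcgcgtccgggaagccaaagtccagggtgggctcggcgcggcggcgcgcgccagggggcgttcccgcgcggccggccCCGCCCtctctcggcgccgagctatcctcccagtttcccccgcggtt

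The GC box began 161 and 68 bases before the start of Crot, 58 and 47 bases before that of Pecr and 47 bases before that of Abcd3. It was found on either strand in 22 of 30 member promoters in the table, against 32.4% of all 27457 promoters of the same length. The nuclear receptor half-site AGGTCA was present in 4 of the 30, those of Acadvl, Echs1, Eci1 and Hsd17b4, against 13.7% of all promoters. The half-site repeated with 1 spacer base, AGGTCANAGGTCA, the form bound by PPAR with RXR, was in none of the 30 and in 0.0546% of all promoters. The extended half-site TCAAGGTCA, which contains AGGTCA, was in none of the 30 and in 0.368% of all. These letters describe the 250-base windows only. Cpt1b, Acadl, Acaa2, Decr1 and Ech1 are the members without an entry.

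Among the 16 arrays, 2 stood apart for these genes, and the plot of all 34 genes shows both. On the array HCR sedentary 2 the median deviation of the 34 genes from their own means was -0.81 log2 units, and 25 of the 34 had their lowest value of all 16 arrays there. On HCR trained 3 it was -0.36, with 6 genes at their lowest and 5 at their highest, and on the other 14 arrays it lay between -0.23 and 0.25. The genes did not deviate alike on these arrays. Each gene was given 1 role, and Crot counts under carnitine entry, not under the peroxisomal role. On HCR trained 3 the mean deviation was 0.16 for the 6 genes of the peroxisomal role. It was between -0.59 and -0.29 for the 6 other roles. The 5 genes highest on that array were Crat, Crot, Ehhadh, Decr2 and Pecr. On HCR sedentary 2 the mean deviation ran from -0.44 for the peroxisomal role to -1.40 for the 4 enzymes of double bonds. The range of a gene over 16 arrays had a median of 1.35 log2 units, and 28 genes ranged over 1 unit or more. Without these 2 arrays the median range was 0.62, and 5 genes ranged that far. The 2 arrays were picked from the same values, so a narrower range without them follows from that choice.

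**Figure D1:**
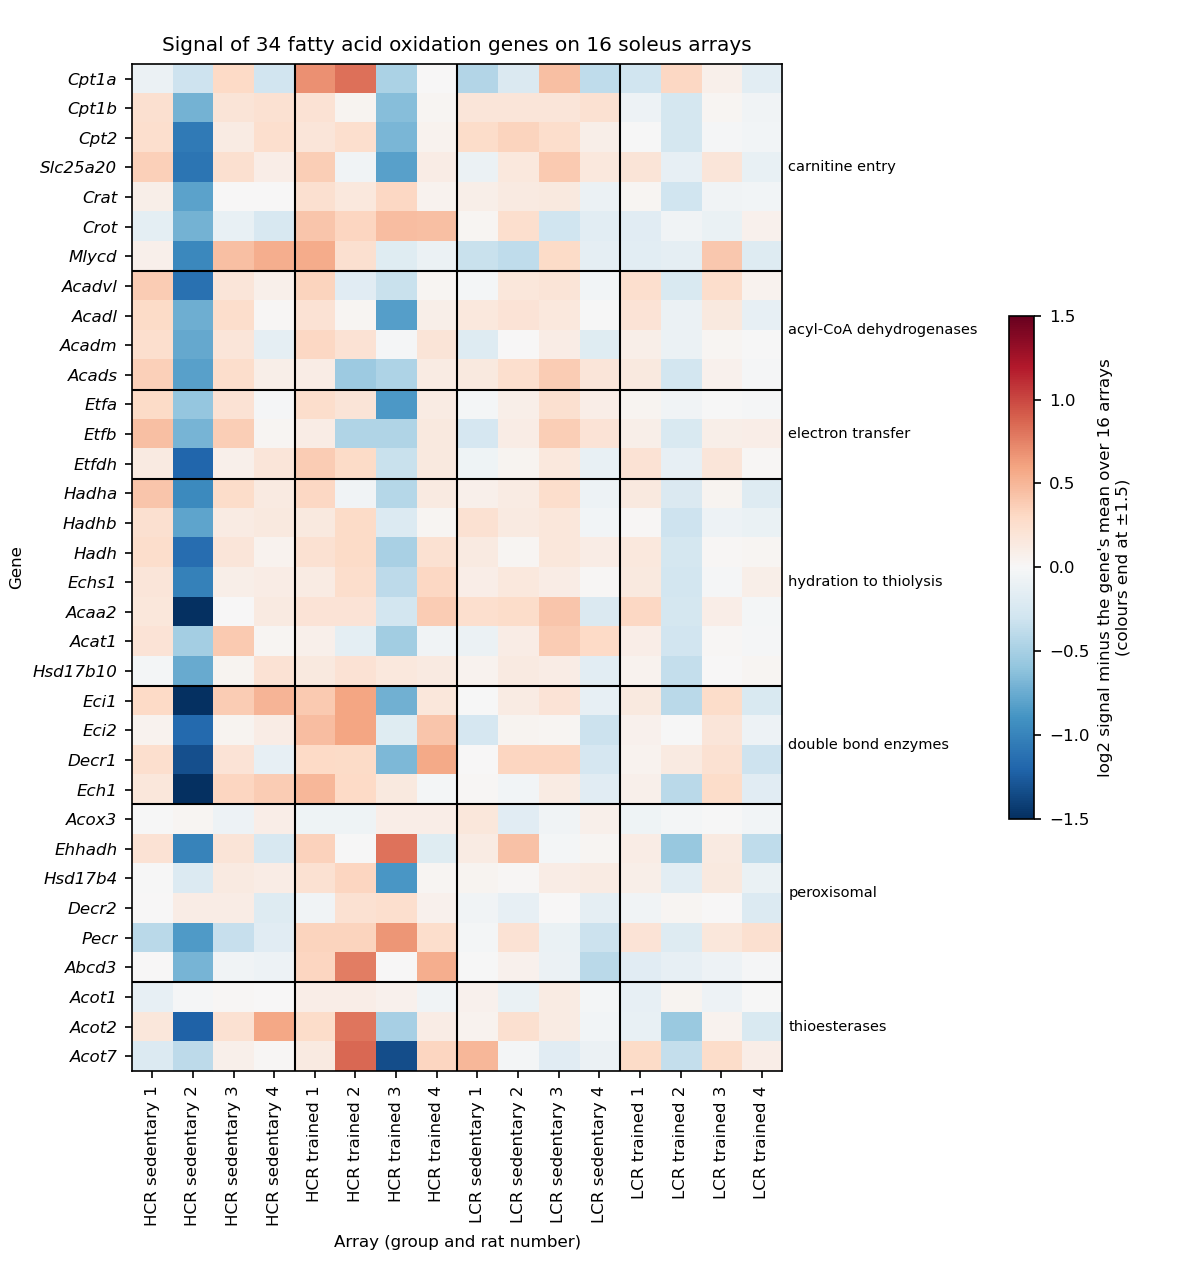
Log2 signal of each of 34 genes (rows, grouped by role) minus its mean over 16 arrays, on each array (columns, HCR rats on the left and LCR rats on the right, sedentary before trained). The column HCR sedentary 2 is low for most genes, and HCR trained 3 is low for most mitochondrial genes and high for Crat, Crot, Ehhadh, Decr2 and Pecr.

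Marker genes of other tissue components moved on the same arrays. Slow-fibre genes, 9 of 10 listed being measured, had a mean deviation of -2.35 on HCR trained 3 and 0.04 to 0.25 on the 15 others. Myh7, the slow myosin heavy chain that defines soleus, was at 12.05 there and at 14.27 to 14.52 on the others. Fast-fibre genes, 11 of 12 measured, averaged 1.05 in HCR trained rats (range 0.26 to 2.39) and -0.31 in HCR sedentary rats (-0.73 to 0.24). Myh4, the fastest myosin heavy chain, was at 8.43 to 13.57 in HCR trained rats and at 4.76 to 8.03 in HCR sedentary rats. Pvalb, Actn3 and Casq1 were also higher in every HCR trained than in every HCR sedentary rat. The other fast-fibre genes measured overlapped. On HCR trained 4 Myh2, Tnnt3, Tnni2 and Tnnc2, at 13.36, 12.20, 12.52 and 13.03, lay below every HCR sedentary rat. On HCR sedentary 2 matrix genes deviated by 1.88 (10 of 10 measured) and macrophage and leukocyte genes by 1.12 (12 of 12). The 3' minus middle index of the beta-actin controls, a measure that varies with RNA and labelling quality, was 0.38 there and 1.06 to 2.37 elsewhere. The 3' minus 5' index of the GAPDH controls was 0.56 there, within the range of the others. On HCR trained 2 both indices were the highest of all arrays, at 2.37 for beta-actin and at 1.67 for GAPDH, which was at 0.48 to 0.77 on the 15 others, and 10 of the 34 genes had their highest value there. In bulk muscle fewer cells of a type and less RNA per cell cannot be told apart. The part of these markers and of the index in the results was not tested beyond the alternatives given.

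**Figure D2:**
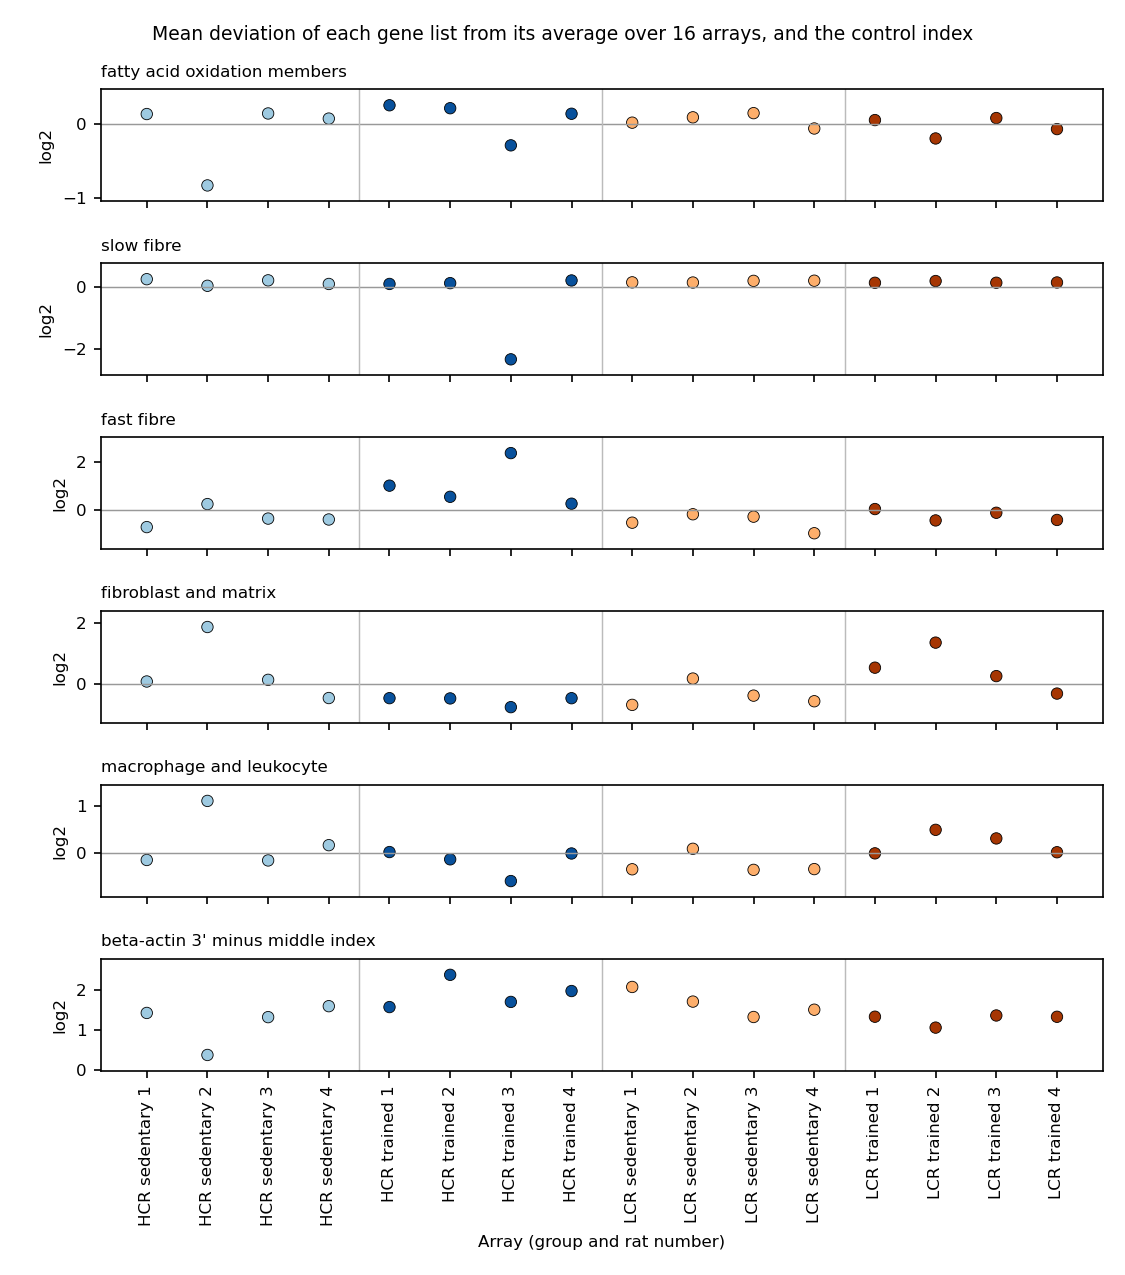
Mean log2 deviation from the average over 16 arrays of the 34 fatty acid oxidation genes and of the slow-fibre, fast-fibre, matrix and macrophage lists, and the beta-actin 3' minus middle index, for each array (x axis). The oxidation genes are lowest on HCR sedentary 2, where matrix genes are at 1.88 and the index at 0.38, and next lowest on HCR trained 3, where slow-fibre genes are at -2.35.

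The first question was whether training changed these genes in the high-capacity line. Crot and Pecr rose in HCR trained rats, 2 of 34 genes, where 0.171% of all probe sets passed as higher. Of the 34 genes 0 fell, where 0.0161% of probe sets passed as lower, and in either direction 0.187% passed (58 of 31042). No gene of the mitochondrial spiral passed. The median difference over the 34 genes was 0.18 log2 units, against 0.00 for all probe sets, and 27 of 34 differences were above 0, against 51.1% of all probe sets. At an unadjusted p under 0.05 there were 5 genes, all higher, against 10.5% of probe sets.

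Crot was at 7.46, 6.90, 7.49 and 7.36 in HCR sedentary rats and at 8.03, 7.93, 8.08 and 8.06 in HCR trained rats. Every trained rat lay above every sedentary rat. The difference was 0.72 log2 units (SE 0.129), from 7.30 ± 0.276 to 8.02 ± 0.0658 (SD, n = 4), or 1.65-fold, with a limma adjusted p of 0.0475. In LCR the same probe set was at 7.63, 7.86, 7.31 and 7.45 in sedentary rats and at 7.44, 7.56, 7.51 and 7.67 in trained rats, groups that overlapped. Crot had 2 other, dimmer probe sets, which differed by 0.04 and -0.06 between HCR trained and sedentary rats. The mean of all 3 gave 0.23 (limma adjusted p = 0.117), so the rise of Crot rests on 1 probe set.

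Pecr was at 8.47, 8.02, 8.53 and 8.71 in HCR sedentary rats and at 9.21, 9.21, 9.54 and 9.14 in HCR trained rats, again without overlap. The difference was 0.84 (SE 0.151), from 8.44 ± 0.293 to 9.28 ± 0.18 (SD, n = 4), or 1.79-fold, with a limma adjusted p of 0.0475. The LCR rats were at 8.85, 9.10, 8.78 and 8.55 when sedentary and at 9.08, 8.69, 9.04 and 9.12 when trained. These lay between both HCR groups on average, at 8.82 and 8.98, and overlapped. Pecr had a single probe set.

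Abcd3 was at 8.11, 7.40, 8.05 and 8.03 in HCR sedentary rats and at 8.43, 8.87, 8.11 and 8.65 in HCR trained rats. The lowest trained and the highest sedentary rat were equal to 2 decimals. The difference was 0.62 (SE 0.169, 95% interval 0.26 to 0.98) and did not pass (limma adjusted p = 0.104). In LCR it was at 8.09, 8.17, 8.01 and 7.70 in sedentary rats and at 7.94, 7.98, 8.03 and 8.08 in trained rats. Crot, Pecr and Abcd3 were the 3 of 34 genes whose HCR groups did not overlap, all higher in trained rats, as 4.94% of all probe sets were.

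**Figure D3:**
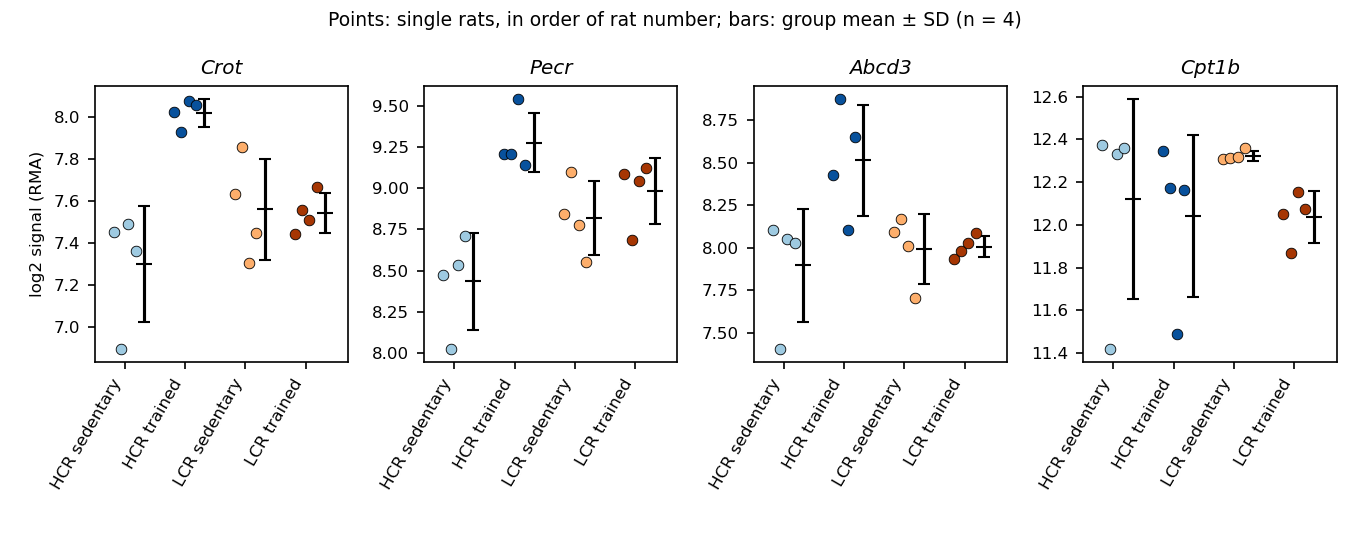
Log2 signal (y axis) of Crot, Pecr, Abcd3 and Cpt1b in each of 16 rats, by group (x axis), with the group mean ± SD (n = 4) as bars. HCR trained rats lie at 7.93 to 8.08 for Crot, above all HCR sedentary rats (6.90 to 7.49), and LCR trained rats lie below all LCR sedentary rats for Cpt1b.

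Both calls were close to the threshold, and of 26 alternatives Crot passed in 5 and Pecr in 6. Both were lost after quantile normalization (limma adjusted p = 0.0619), without dim probe sets (0.0512), with robust moderation and a variance trend (0.0549), with the replicate number as a block (0.0992 for Crot and 0.0983 for Pecr) and in a fit of HCR rats alone (0.252). They held with each array centred on its median (limma adjusted p = 0.0346) and with array weights, where Abcd3 passed as well (0.0299). They held when HCR sedentary 4, HCR trained 3 or LCR sedentary 2 was left out, and neither held when any 1 of the 13 other arrays was left out (adjusted p between 0.0531 and 0.121). Without HCR sedentary 2 the differences were 0.58 for Crot (adjusted p = 0.107) and 0.70 for Pecr (0.121), and without both arrays that stood apart 0.57 (0.0768) and 0.61 (0.0863). With the beta-actin index added as a covariate they were 0.50 and 0.59 (0.509 for both). The index averaged 1.18 in HCR sedentary and 1.90 in HCR trained rats, so its part and that of training cannot be fully told apart. The direction was the same in all 26. The median of the 34 genes depended more on single arrays. It was -0.05 without HCR sedentary 2, with 15 of 34 differences above 0. In that refit Crot, Pecr and Abcd3 were higher and Acads, Etfb and Acat1 lower at an unadjusted p under 0.05. The share of all probe sets at that level in the refit is not given. The median was 0.08 without that array and HCR trained 3, with 20 of 34. It was 0.28 without HCR sedentary 1, 3 or 4, 0.29 without HCR trained 3, 0.08 without HCR trained 2 and -0.28 with the covariate.

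None of the other entry genes passed in HCR training. Cpt1b, the muscle form of the palmitoyltransferase, differed by -0.08 (SE 0.2), and Cpt1a, the liver form, by 0.35 (SE 0.267). Cpt1a was at 6.43, 6.20, 6.81 and 6.23 in sedentary and at 7.19, 7.34, 6.04 and 6.51 in trained HCR rats, and at 6.07, 6.30, 6.96 and 6.13 in sedentary and 6.21, 6.82, 6.59 and 6.35 in trained LCR rats. Its HCR trained values spanned more than either sedentary group, and its second probe set differed by -0.16 in HCR training. Crat, the carnitine acetyltransferase that buffers acetyl-CoA, differed by 0.36 (SE 0.155, limma adjusted p = 0.24) and was 1 of the 5 genes at an unadjusted p under 0.05. It differed by 0.15 without HCR sedentary 2 and by 0.11 without the 2 arrays that stood apart. Slc25a20, the translocase, differed by 0.00 and Cpt2, the second palmitoyltransferase, by 0.06. Mlycd, which breaks down the malonyl-CoA that restrains entry, differed by 0.11. Of the 7 entry genes, Crot included, 6 had differences above 0 on all arrays and 3 without HCR sedentary 2.

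In the mitochondrial spiral no gene passed in HCR training. Of the 4 acyl-CoA dehydrogenases, which act on very long, long, medium and short chains, Acadm differed by 0.29 and Acadvl by 0.09, and Acadl by -0.08 and Acads by -0.17. They were, without HCR sedentary 2, at 0.07, -0.25, -0.31 and -0.43 in that order. Acads, the short-chain enzyme, was at 10.42, 9.24, 10.33 and 10.15 in sedentary and at 10.17, 9.51, 9.60 and 10.18 in trained HCR rats, which overlapped. Etfb, the smaller subunit of the electron transfer flavoprotein, gave the most negative difference of the 34, -0.20 (SE 0.225). It was at 12.08, 10.94, 12.003 and 11.66 in sedentary and at 11.74, 11.18, 11.18 and 11.78 in trained HCR rats. Its partner Etfa differed by -0.05 and Etfdh, which hands the electrons to ubiquinone, by 0.32, neither past the threshold. Without HCR sedentary 2 all 3 were below 0, Etfb at -0.45, Etfa at -0.24 and Etfdh at -0.01.

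Of the 7 genes from hydration to thiolysis, 6 had differences above 0, with a median of 0.23, and none passed. Without HCR sedentary 2 it was 2 of 7, with a median of -0.10, so the sign rested on that array. Acaa2, a thiolase, differed by 0.47 (SE 0.323). It was at 11.73, 9.88, 11.56 and 11.69 in HCR sedentary rats and at 11.76, 11.76, 11.28 and 11.93 in HCR trained rats, so that 1 sedentary rat was low by more than 1 log2 unit, and without it the difference was 0.02. Acat1, the acetyl-CoA acetyltransferase of ketone body and isoleucine metabolism, differed by -0.19 (SE 0.176). It was at 12.24, 11.52, 12.42 and 12.06 in sedentary and at 12.11, 11.88, 11.51 and 11.98 in trained HCR rats, and its dimmer probe set had the opposite sign (0.17). Hadha and Hadhb, the subunits of the trifunctional protein, differed by 0.02 and 0.14.

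All 4 enzymes that deal with double bonds had differences above 0, with a median of 0.38, but 2 of 4 did without HCR sedentary 2, with a median of -0.03. Eci2, an enoyl-CoA isomerase, was at 9.31, 8.10, 9.31 and 9.38 in HCR sedentary rats and at 9.72, 9.86, 9.08 and 9.68 in HCR trained rats, a difference of 0.56 (SE 0.24, limma adjusted p = 0.242). The trained rats 1, 2 and 4 were above all sedentary rats and rat 3 was not. The difference was 0.25 without HCR sedentary 2. Its relative Eci1 differed by 0.22, with 1 sedentary rat at 9.48 and the others at 11.40 to 11.61, and by -0.29 without that rat. Decr1 and Ech1, a dienoyl-CoA reductase and an isomerase, differed by 0.36 and 0.39, and by 0.01 and -0.06 without HCR sedentary 2.

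None of the other peroxisomal genes passed. Ehhadh, the bifunctional enzyme induced by PPARα in liver, differed by 0.45 (0.19 without HCR sedentary 2), Decr2 by 0.12, Acox3, an acyl-CoA oxidase, by 0.01 and Hsd17b4, the D-bifunctional protein, by -0.08. The mean signals of Ehhadh and Acox3 were low, at 5.70 and 5.85, the 42.7th and 47th percentiles of probe sets. Decr2, the peroxisomal dienoyl-CoA reductase, was at 6.36, 6.47, 6.47 and 6.17 in HCR sedentary and at 6.31, 6.59, 6.62 and 6.42 in HCR trained rats. Among thioesterases, which release free acids from CoA, mitochondrial Acot2 differed by 0.23 (-0.15 without HCR sedentary 2) and Acot7 by 0.12. The cytosolic Acot1 differed by 0.08. Its mean signal of 4.29 on all arrays was at the 3.96th percentile of probe sets, under the 40th (5.61).

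**Figure D4:**
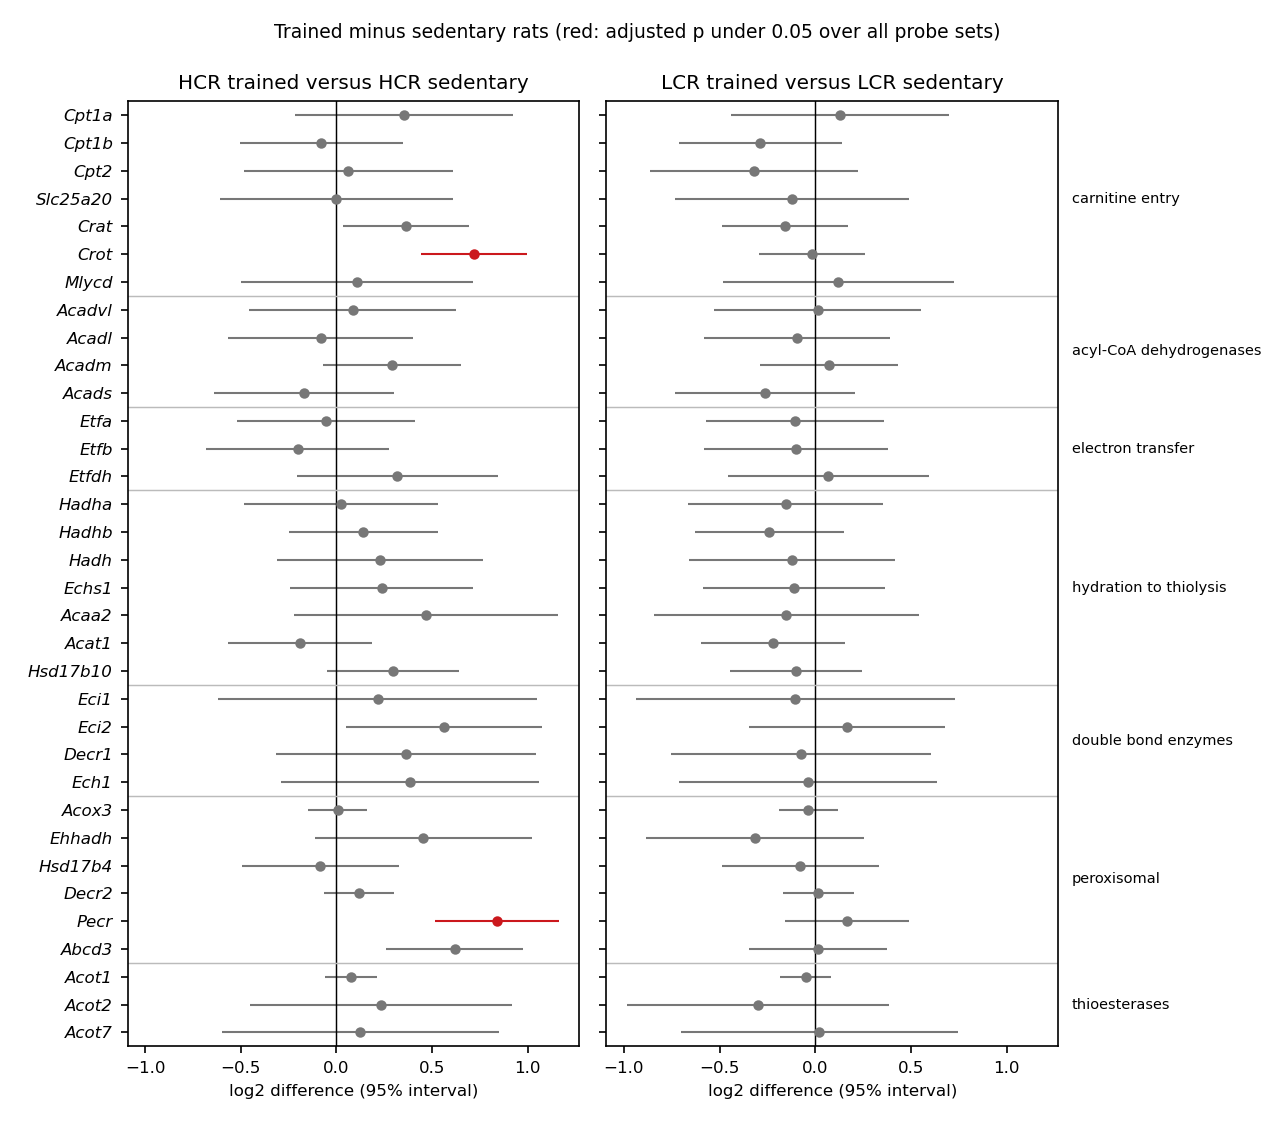
Trained minus sedentary log2 difference (x axis, points) with its 95% interval (lines) for each of 34 genes grouped by role, in HCR (left) and LCR (right). Crot at 0.72 and Pecr at 0.84 in HCR, in red, are the genes with an adjusted p under 0.05, and every LCR interval spans 0.

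The same question in the low-capacity line gave no call. With limma 0 of 34 genes passed, where 0.00322% of all probe sets did (1 of 31042), and 0 had an unadjusted p under 0.05, where 9.76% did. In a fit of LCR rats alone 0 passed as well, but 5 were lower at an unadjusted p under 0.05, Cpt1b, Cpt2, Acads, Hadhb and Acot2, against 8.53% of probe sets, and the smallest adjusted p was 0.141. The median difference was -0.10, against -0.02 for all probe sets, and 10 of 34 differences were above 0, against 41.6% of all probe sets. It was -0.03 without LCR trained 2, -0.06 without LCR sedentary 3 or LCR trained 4 and 0.11 with the beta-actin covariate. Cpt1b, Cpt2 and Acads were lower in every LCR trained rat than in every LCR sedentary rat, 3 of 34 genes, where 5.61% of probe sets were. Markers of other components moved in the same rats. Matrix genes averaged -0.35 in LCR sedentary rats (range -0.68 to 0.19) and 0.47 in LCR trained rats (-0.31 to 1.37), and macrophage and leukocyte genes -0.25 (-0.37 to 0.08) and 0.20 (-0.01 to 0.49). Adipocyte genes averaged 0.11 in LCR sedentary rats (-0.13 to 0.53) and -0.35 in LCR trained rats (-0.59 to 0.01). The beta-actin index averaged 1.65 and 1.27. LCR trained 2 was the lowest LCR array for the 34 genes. Among LCR arrays it was the highest for the matrix and leukocyte lists and the lowest for the adipocyte list and the index. The part of these markers in the LCR differences was not tested.

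Cpt1b was at 12.31, 12.31, 12.32 and 12.36 in LCR sedentary rats and at 12.05, 11.87, 12.15 and 12.07 in LCR trained rats. The sedentary rats differed little (SD 0.0237), and all trained rats were lower. The difference was -0.29 (SE 0.2, limma adjusted p = 0.656; SE 0.0695 and 0.141 with LCR rats alone), in a model whose error also holds the HCR rats, where Cpt1b was at 12.37, 11.42, 12.33 and 12.36 in sedentary and at 12.34, 12.17, 11.49 and 12.16 in trained rats. Cpt2 was at 10.97, 11.02, 10.95 and 10.77 in LCR sedentary rats and at 10.69, 10.43, 10.67 and 10.64 in LCR trained rats, a difference of -0.32 (SE 0.255, adjusted p = 0.696 with limma; SE 0.0812 and 0.148 with LCR rats alone). Acads was at 10.21, 10.31, 10.44 and 10.24 against 10.20, 9.79, 10.12 and 10.05 (difference -0.26). Hadhb, the thiolase subunit, was at 13.15, 13.06, 13.08 and 12.88 against 12.94, 12.60, 12.85 and 12.82, which overlapped (difference -0.24).

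The largest LCR training differences above 0 were 0.17 for Pecr, 0.16 for Eci2 and 0.13 for Cpt1a. Eci2 was at 9.02, 9.31, 9.30 and 8.94 in LCR sedentary and at 9.33, 9.26, 9.44 and 9.18 in LCR trained rats. For Crot the LCR difference was -0.02 with a 95% interval of -0.29 to 0.26 on its brightest probe set, whereas a dimmer one was higher in trained rats by 0.32 (SE 0.13, limma adjusted p = 0.456), and for Abcd3 0.01 with an interval of -0.35 to 0.37.

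Whether the lines responded differently was tested as the interaction, the HCR minus the LCR training difference. With limma 0 of 34 genes passed, as did 0% of all probe sets. The values were 0.74 for Crot (SE 0.182, adjusted p = 0.105), 0.67 for Pecr (SE 0.214, 0.146), 0.60 for Abcd3 (SE 0.238, 0.204) and 0.52 for Crat (SE 0.219, 0.225). These 4 had an unadjusted p under 0.05, all higher, against 10.8% of probe sets. The dimmer probe sets of Crot gave -0.38 (SE 0.184, adjusted p = 0.289) and 0.00, so the value for Crot holds for 1 of its 3 probe sets. The median was 0.24 over the 34 genes and 0.04 over all probe sets, with 31 of 34 above 0, against 57.1% of probe sets. It was 0.04 without HCR sedentary 2, 0.43 without HCR trained 3, 0.14 with array weights and -0.38 with the beta-actin covariate. A difference between the lines in the response of Crot or Pecr was therefore not shown, although both passed in HCR.

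Between sedentary rats of both lines 0 of 34 genes passed with limma, where 0.00966% of probe sets did (3 of 31042), and no gene's groups were without overlap, where 4.87% were. The median HCR minus LCR difference was -0.17, against 0.01 for all probe sets, and 4 of 34 were above 0, against 51.8% of all. Without HCR sedentary 2 the median was 0.05 and 25 of 34 were above 0, so the direction rested on that array. It was between -0.28 and -0.27 without HCR sedentary 1, 3 or 4. Pecr had the smallest p, with a difference of -0.38 (SE 0.151, adjusted p = 0.586), and was the 1 gene with an unadjusted p under 0.05 (0.0236), lower in HCR, against 4.74% of probe sets. Crot differed by -0.26 and Acaa2 by -0.52, the latter with LCR sedentary rats at 11.80, 11.82, 11.97 and 11.34. The 3 smallest p-values above 0 belonged to Decr2 (0.08), Mlycd (0.17) and Cpt1a (0.05). Mlycd was at 9.33, 8.29, 9.71 and 9.80 in HCR and at 8.92, 8.88, 9.54 and 9.13 in LCR sedentary rats, which overlapped.

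Between trained rats 0 of 34 genes passed with limma, where 0.374% of probe sets did (116 of 31042), and 2 had an unadjusted p under 0.05, both higher in HCR, against 11.5% of probe sets. Crot was higher in HCR by 0.48 (SE 0.129, limma adjusted p = 0.0818) and Abcd3 by 0.51 (SE 0.169, 0.125). Crat, Crot, Hsd17b10, Pecr and Abcd3 did not overlap between the trained lines, 5 of 34 genes, all higher in HCR, where 7.61% of probe sets were. Crot was at 7.93 or above in HCR trained rats and at 7.67 or below in LCR trained rats. A dimmer Crot probe set had the opposite sign, -0.30.

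Calls among trained rats depended on the arrays used. Crot passed without HCR sedentary 2 (limma adjusted p = 0.0339) and in a fit of the trained rats alone (0.0159). Crot (0.00793) and Abcd3 (0.0089) passed with array weights. Without HCR sedentary 2 and HCR trained 3, Crot (0.0374), Eci2 (0.0295) and Abcd3 (0.0153) passed, with differences of 0.46, 0.45 and 0.64. The share of all probe sets called in these refits is not given, so the calls cannot be set against it. The median of the 34 genes was 0.09, against 0.04 for all probe sets, and it was 0.23 without HCR trained 3, 0.03 without HCR trained 4, 0.05 without LCR trained 2 and -0.30 with the beta-actin covariate. The smallest p-values below 0 belonged to Acads (-0.18), Etfb (-0.17) and Acadl (-0.16). Acadl, the long-chain dehydrogenase, was at 12.76, 12.58, 11.73 and 12.64 in HCR and at 12.75, 12.46, 12.70 and 12.42 in LCR trained rats, so 1 HCR rat lay apart. Decr2 was higher in HCR by 0.18, with LCR trained rats at 6.31, 6.39, 6.37 and 6.15.

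Averaged over both lines, training gave 0 of 34 calls (0.00644% of probe sets), with Pecr at 0.50 (SE 0.107, limma adjusted p = 0.122) and Crot at 0.35 (0.202). At an unadjusted p under 0.05 there were 3 genes, all higher in trained rats, against 5.29% of probe sets. With array weights 3 genes passed, Crot, Pecr and Abcd3, and the share of all probe sets called in that fit is not given. Averaged over training states, the lines differed in 0 of 34 genes (0.087% of probe sets), and the smallest adjusted p was 0.481, for Decr2 at 0.13 higher in HCR. Decr2 was also the 1 gene with an unadjusted p under 0.05, where 5.83% of probe sets were higher in HCR at that level.

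Other genes of the pathway, grouped by function, gave 0 calls in the 4 pairwise comparisons. Of 38 further enzymes and carriers 34 were measured, and in HCR training their median difference was 0.21, with 13 at an unadjusted p under 0.05, all higher, where 10.5% of probe sets were and the median over all was 0.00. Their mean deviation on HCR sedentary 2 was -0.42. Without that array, in a refit whose share of all probe sets is not given, the median was 0.18, with 12 higher and 1 lower. Those of smallest p were Mcee, an epimerase of propionate breakdown, at 0.66 (SE 0.143, limma adjusted p = 0.0656), and Echdc3 at 0.62 (0.0897). Between sedentary lines they were Acox2, an oxidase of branched chains and bile acid precursors, at -1.08, and Acad9, which also serves complex I assembly, at 1.94. In LCR training Acsl3 was at 0.43 and Acox2 at -0.57, and between trained lines Acot3 was at 0.36 and Slc25a17 at 0.33. At an unadjusted p under 0.05, 1 was higher and 2 lower in LCR training, where 3.54% and 6.22% of probe sets were. Between sedentary lines 2 were higher and 5 lower in HCR (3.63% and 4.74% of probe sets), and between trained lines 7 higher and 0 lower (11.5% and 8.2%).

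Peroxisome biogenesis genes, 15 of 18 measured, import proteins into peroxisomes and form their membranes. Their median HCR training difference was 0.15, with 5 higher at an unadjusted p under 0.05 against 10.5% of probe sets. The median was 0.07 without HCR sedentary 2, with 4 higher and 1 lower, and the share of all probe sets in that refit is not given. Pex7, an import receptor, was at 0.36 in HCR training (limma adjusted p = 0.083) and Pex13 at 0.22 (0.126). Pex13 was at -0.16 in LCR training, -0.19 between sedentary lines and 0.20 between trained lines, with 1 gene lower (6.22% of probe sets), 4 lower (4.74%) and 2 higher (11.5%) at an unadjusted p under 0.05 in these comparisons, and the second genes by p were Pxmp2 (-0.43), Pex7 (-0.25) and Pex5 (0.23). The regulators and fuel gates, 15 of 17 measured, had a median of 0.09 in HCR training, and of 0.00 without HCR sedentary 2. There the carnitine importer Slc22a5 was at 0.42 (limma adjusted p = 0.146) and Acacb, which makes malonyl-CoA at mitochondria, at -0.58. Acaca was at -1.02 and Oxct1 at -0.32 between sedentary lines, Slc22a5 at 0.40 and Acacb at -0.68 between trained lines, and Ppargc1a at 0.40 and Acaca at -0.57 in LCR training, none past the threshold. At an unadjusted p under 0.05 they gave 1 gene higher in HCR training (10.5% of probe sets), 0 in LCR training, 1 lower between sedentary lines (4.74%), and 1 higher and 1 lower between trained lines (11.5% and 8.2%).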

How the data were processed

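The values were the authors' deposited log2 signals per probe set on 16 arrays. The submitters' processing notes name RMA, a method of background correction, normalization and summary of probes, together with limma, and their versions were not given in the sources used here. Since RMA normalizes arrays to one another, a difference is read against the rest of the array. Array medians lay between 5.90 and 5.98. Scan dates were not used, so batches were not tested.

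After 57 control probe sets were left out, 31042 were fitted with limma 3.58.1 in R 4.3.3 as 4 group means (12 residual degrees of freedom), with Benjamini-Hochberg adjustment over all of them in each comparison and a threshold of 0.05. The fit was tested on simulated data with independent noise for each probe set and no array that stood apart. That test does not cover such arrays. The text names each gene called, with every array's value, and the 3 of smallest p in each direction of each pairwise comparison. Most of the latter have array values for the groups compared. Related pairs are also named, not all with every array's value. Of other lists the text names called genes or the 2 of smallest p. Alternatives covered normalization, dim probe sets, moderation, array weights, the replicate number as a block, the beta-actin index, probe sets per gene and arrays left out. Members and lists were chosen with earlier results of these data known.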

Additional observations from a re-analysis of the deposited data

Results flagged for a closer look

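Some single rats lay far from the other 3 of their group, by a rule that chance meets in about 1 of 20 groups. Of 136 combinations of gene and group, which are not independent because genes share arrays, 19 met it, where chance would give about 6.8.

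The array HCR sedentary 2 gave 12 of them, all low. Cpt1b was at 11.42 there and at 12.33 or above in the other 3 rats, Cpt2 at 9.62 (others from 10.82), Crat at 10.46 (from 11.26) and Etfdh at 9.28 (from 10.54). Hadhb was at 12.12 (from 13.04), Hadh at 10.97 (from 12.17), Echs1 at 9.99 (from 11.09) and Acaa2 at 9.88 (from 11.56). Eci1 was at 9.48 (from 11.40), Eci2 at 8.10 (from 9.31), Ech1 at 10.03 (from 11.69) and Abcd3 at 7.40 (from 8.03).

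The array HCR trained 3 gave 3. Etfa was low at 10.88 (others from 11.87) and Hadh at 11.63 (from 12.34), whereas Pecr was high at 9.54 (others up to 9.21). In LCR, trained rat 2 was low for Cpt2 at 10.43 (others from 10.64), Etfb at 11.40 (from 11.71) and Hsd17b10 at 10.40 (from 10.75). LCR trained rat 3 was high for Mlycd at 9.67, against 9.12 or below.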

How the results depend on the processing

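The 2 calls in HCR training became 0 after quantile normalization, with dim probe sets removed, with robust moderation and a variance trend, with the beta-actin covariate, without both HCR sedentary 2 and HCR trained 3, and in a fit of HCR rats alone, and 1 with the mean of all probe sets of a gene. Leaving out 1 array gave 0 to 2. Between trained lines the count of 0 became 2 with array weights, 3 without both arrays and 1 in a fit of trained rats alone, and 0 to 1 with 1 array left out. For training averaged over lines it became 3 with array weights. The share of all probe sets called under these alternatives is not given. With the beta-actin covariate the median differences turned to -0.28 in HCR training, -0.30 between trained lines and -0.38 for the interaction; the cause of these changes was not tested. In the other comparisons, LCR training, sedentary lines, the interaction and lines averaged, the count stayed at 0 under every alternative run.

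The labels do not say whether equal replicate numbers share a litter, batch or day. Over 24 same-number pairs the correlation of deviations ran from -0.483 to 0.573 (median 0.0323), and 8 were over 0.1. Pairs of different numbers were not set beside them, so these values do not decide whether rats were paired. With the replicate block 0 genes passed in HCR training (adjusted p 0.0992 for Crot and 0.0983 for Pecr), and it changed no other call. With 4 rats a group and no detection calls, small differences and dim genes such as Acot1 could not be resolved.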
